A study of Drosophila melanogaster with 3 samples.

Results

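The Polycomb group genes described here are 10 named genes: ph-p, ph-d, Pc, Psc, Su(z)2, E(z), esc, Sce, pho and Su(z)12. They were taken by name, with no threshold on a measured value but with earlier results of these data known, out of 13945 protein-coding genes on the chromosome arms, and all 10 were found in the annotation. The data are region lists from chromatin immunoprecipitation followed by sequencing (ChIP-seq), which recovers the DNA attached to a protein of interest. The protein was Plzf, a zinc finger protein encoded by CG6792, carrying eGFP in flies of the transgenic strain CG6792-GFP, and it was recovered with an antibody against GFP. The material was whole prepupae, the stage at the onset of metamorphosis, with males and females pooled, so no value can be assigned to a tissue. There were 3 biological replicates of 1 group, all with the same genotype and stage, and no second group to compare them with. The deposited lists give peaks, not reads, so sequencing depth is unknown. The labels give CG6792 in their antibody field and GFP in their description, and the promoter that drives the transgene is not given in the sources used here.

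Polycomb group proteins keep developmental genes, the homeotic genes above all, silent through cell division. They act in complexes: Polycomb repressive complex 1 (PRC1) binds and modifies nucleosomes, Polycomb repressive complex 2 (PRC2) methylates lysine 27 of histone H3, and DNA-binding proteins such as Pho help bring both to Polycomb response elements. Among the genes here, ph-p, ph-d, Pc, Psc, Su(z)2 and Sce encode PRC1 proteins or their close relatives, E(z), esc and Su(z)12 encode PRC2 subunits, and pho encodes a DNA-binding protein. The question addressed was where Plzf-eGFP was found at the genes that encode this machinery. The regions say nothing of where Polycomb proteins themselves were bound.

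A region was assigned to a gene when its summit, the position of highest signal, lay inside the gene or within 5 kb of either end. An IDR peak is a region that the authors kept by the irreproducible discovery rate, a procedure that keeps regions ranked alike in the replicates. The authors' optimal list held 7096 IDR peaks, and the pooled list and the list of each replicate held 30000 regions each. The signal of a region is the authors' peak height set on a scale of each list's own. Signals were therefore compared only within a list, and between lists only as ranks or percentiles. IDR peaks had pooled signals from 79.6 to 3444, with a median of 145.0. Transcription start site is written TSS, and an offset is counted along the gene's own strand.

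Plzf-eGFP gave its strongest peaks of the 10 genes in the windows of ph-p, Pc and Psc, and moderate ones at E(z) and ph-d. Peaks were weak in the windows of Su(z)2, Su(z)12 and Sce, and esc and pho had no IDR peak. The strong Pc peak lay outside the gene, 90 bp inside the TSS of its neighbour CG11309. Those of Su(z)2 and Sce were also nearer to the TSS of a neighbour. Of the 10 genes, 8 had at least 1 IDR peak, where 52.0% of all protein-coding genes did. The windows of the 10 genes were long, with a median of 18360 bp against 12166 bp over all protein-coding genes, and longer windows hold more peaks. Per 10 kb of window the 10 genes had 1.17 IDR peaks against 0.652 over all genes. A peak in more than 1 window counts in each here, which gives 21 for the 10 genes. The rate was 3.61 at ph-p, 2.59 at Sce and 1.71 at ph-d, and from 0 to 0.914 at the other genes. The median number of IDR peaks per window was 1.5 for the 10 genes and 1 over all genes. The windows together held 18 different IDR peaks and 52 pooled regions, and ph-p and ph-d share 3 of the peaks because the genes are neighbours. The 18 peaks covered 16 separate intervals, because peak regions overlapped upstream of Sce and between the ph genes. The counts and rates at Sce, ph-p and ph-d therefore include overlapping peaks. Of the 10 genes, 5 had an IDR peak inside the gene, as did 14.2% of all protein-coding genes. Every window adds the same 5 kb at either end, so median gene lengths differed by a larger factor than median windows. This comparison inside genes takes no account of gene length. The nearest protein-coding TSS of a peak was the gene's own for 5 of the 10, and for 23.6% of all. These counts describe the list and were not tested.

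Sequences under 6 of the peaks at the ph genes are shown because these copies, alike in sequence, had the most peaks and the strongest one. Each is a summit with 50 bases on either side, from the plus strand of the RefSeq dm6 genome, while both genes lie on the minus strand. Capitals mark a match to one of the 10 short motifs searched on both strands, and each motif is spelled out with its counts after the sequences. A sequence without capitals holds none of them.

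ph-p strongest peak, chrX:2137261-2137361: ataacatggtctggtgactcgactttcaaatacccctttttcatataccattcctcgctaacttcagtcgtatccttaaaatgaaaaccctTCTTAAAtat
ph-p intron, chrX:2135301-2135401: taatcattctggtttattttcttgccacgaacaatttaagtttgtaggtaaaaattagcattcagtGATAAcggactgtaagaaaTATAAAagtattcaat
ph-p intron, chrX:2134402-2134502: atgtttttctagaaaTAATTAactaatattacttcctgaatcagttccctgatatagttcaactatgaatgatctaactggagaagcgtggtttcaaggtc
between the genes, chrX:2124261-2124361: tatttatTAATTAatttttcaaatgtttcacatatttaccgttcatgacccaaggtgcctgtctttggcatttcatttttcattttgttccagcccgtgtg
ph-d strongest peak, chrX:2124062-2124162: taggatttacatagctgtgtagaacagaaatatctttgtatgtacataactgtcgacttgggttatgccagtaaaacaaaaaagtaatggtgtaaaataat
ph-d intron, chrX:2122088-2122188: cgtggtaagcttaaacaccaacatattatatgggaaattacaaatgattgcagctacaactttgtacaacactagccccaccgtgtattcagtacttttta

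The strongest ph-p window held TCTTAAA, and the strongest ph-d window held none of the 10 motifs. None of the 6 windows held GCCAT or GAGAG. Over the 18 member peaks, GCCAT was within 50 bp of 2 summits, those at Su(z)2 and downstream of Sce, where 12.6% of all IDR peaks held it. GAGAG, the core of sites for the GAGA factor, was at 1 summit, again the one at Su(z)2, against 10.5% of all IDR peaks. TAATTA, the homeodomain core, was at 4 of the 18 against 9.78% of all. TCTTAAA was at 2 against 5.61%, and TATAAA at 4 against 22.1%. CGATA was at 1 against 12.5%, GATAA at 3 against 23.6%, GTGTGT at 1 against 5.24%, TAATATA at 1 against 7.91%, and TATCGATA, which contains CGATA, at 0 against 0.944%. With 18 summits, each of these is a handful of windows, and a match of a short motif is a description, not a binding site. TCTTAAA and TAATATA stand for no named element. Of the 10 motifs, 2 were picked for their frequency at peaks of these data, and counts of such motifs are no independent comparison. The GC content within 50 bp of the 18 summits had a median of 31.7%, equal to that of all IDR peaks, and ran from 22.8% to 47.5%.

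The ph genes, ph-p and ph-d, are neighbouring copies that encode Polyhomeotic proteins, PRC1 subunits with a SAM domain through which they polymerise. Both lie on the minus strand of X, ph-d (FBgn0004860) from 2115727 to 2123286 and ph-p (FBgn0004861) from 2126210 to 2138371, with 2923 bp between them. The ph-p window held 14 pooled regions and 8 IDR peaks, 3 of them shared with ph-d, and 138 protein-coding genes in all had 8 or more.

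The strongest of all member peaks covered X from 2137025 to 2137617, in an intron of ph-p 456 bp upstream of an internal TSS. Its signal was 534 in replicate 1, 604 in replicate 2 and 514 in replicate 3, and its rank of 30000 was 21, 37 and 23. It was thus among the strongest regions of every replicate, at percentile 99.91 ± 0.029 (SD, n = 3) of the replicates' own lists. In the pooled list its signal was 1559, and 95 of the 13945 genes (0.681%) had a stronger IDR peak in their windows.

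The next ph-p peak lay close by in the 5′ UTR, 400 bp inside the distal TSS (X, 2137650 to 2138158, pooled signal 712). Its signals were 259, 358 and 179 in replicates 1, 2 and 3. The strongest peak exceeded it in every replicate, by ratios of 2.06, 1.69 and 2.87, a mean log2 ratio of 1.11 ± 0.39 (SD, n = 3). With 3 replicates an exact two-sided sign-flip test cannot go below p = 0.25, so no test was made of this or any other ratio.

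Farther into ph-p, a pair of intron peaks had pooled signals of 397 (X, 2135179 to 2135537) and 351 (X, 2134286 to 2134577). The first had signals of 109, 199 and 91.3 in replicates 1, 2 and 3. The second had 93.2, 173 and 83.5. Within each replicate the first was the higher. Another 6 regions in the window were weaker than any IDR peak, with pooled signals from 20.6 to 78.0, and the highest of them lay 120 bp inside an internal TSS. At the far side, a weak peak of pooled signal 109.8 lay 3561 bp upstream of ph-p in the 5′ UTR of D2hgdh, a gene of 2-hydroxyglutarate metabolism, and had signals of 19.3, 59.8 and 24.6.

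ph-d carried 3 IDR peaks, and its strongest lay between the copies, 826 bp upstream of the distal ph-d TSS (X, 2123777 to 2124186, pooled signal 294.9). Its signals were 129, 72.2 and 83.1 in replicates 1, 2 and 3. A peak 1025 bp upstream, whose region overlapped this one (X, 2124134 to 2124429, pooled signal 175), had 97.5, 39.0 and 42.4. On percentiles, the strongest of the pooled list stood at 97.7, 90.02 and 95.6 in the lists of replicates 1, 2 and 3, lowest in replicate 2. The third lay in a ph-d intron 346 bp upstream of an internal TSS (X, 2122026 to 2122211, pooled signal 230.2), with signals of 65.9, 114.0 and 53.0. For ph-d, 2439 genes (17.5%) had a stronger IDR peak than its strongest.

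The ph-p peak that was strongest in the pooled list exceeded the ph-d peak that was strongest there in every replicate, by ratios of 4.13, 8.37 and 6.19, a mean log2 ratio of 2.58 ± 0.51 (SD, n = 3). In replicate 2 the ph-d intron peak, at 114.0, was the highest of that gene, and with the strongest region of each replicate's own list the ratios were 4.13, 5.30 and 6.19, a mean log2 ratio of 2.36 ± 0.29 (SD, n = 3). The copies share much of their sequence, and 5 alignable blocks were found with 70.5% to 92.0% identity. The strongest ph-p summit lay in 208 bp of ph-p sequence that falls between a pair of these blocks, 47 bp past a block's edge, where ph-d has 15 bp. The strongest ph-d summit likewise lay in 209 bp between blocks, where ph-p has 98 bp. One pair of IDR peak summits did fall at aligned positions, in a block of 81.0% identity. The ph-p peak in the 5′ UTR aligned to a position 35 bp from the ph-d peak that lies 1025 bp upstream. For this pair the ph-p signal exceeded the ph-d signal by ratios of 2.66, 9.20 and 4.22, a mean log2 ratio of 2.23 ± 0.91 (SD, n = 3). A weaker ph-d region, of pooled signal 76.5 and so no IDR peak, lay 202 bp upstream of a ph-d TSS and was matched in 2 replicates. Its summit aligned, in a block of 90.7% identity, to a position inside the region of the strongest ph-p peak. That position was 257 bp from the ph-p summit.

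Reads from identical stretches of the copies cannot be placed, and how long the reads were or how such reads were treated is not given in the sources used here. Within 200 bp of the strongest ph-p summit, 5.19% of the 36-base words occurred elsewhere on the chromosome arms, and at the other 17 member summits none did. The Y chromosome and unplaced sequence were not searched. The longest identical run was 528 bp, in the block that joins the downstream parts of the copies (X, 2116869 to 2121323 in ph-d and 2126824 to 2131227 in ph-p), where neither gene had an IDR peak.

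**Figure D1:**
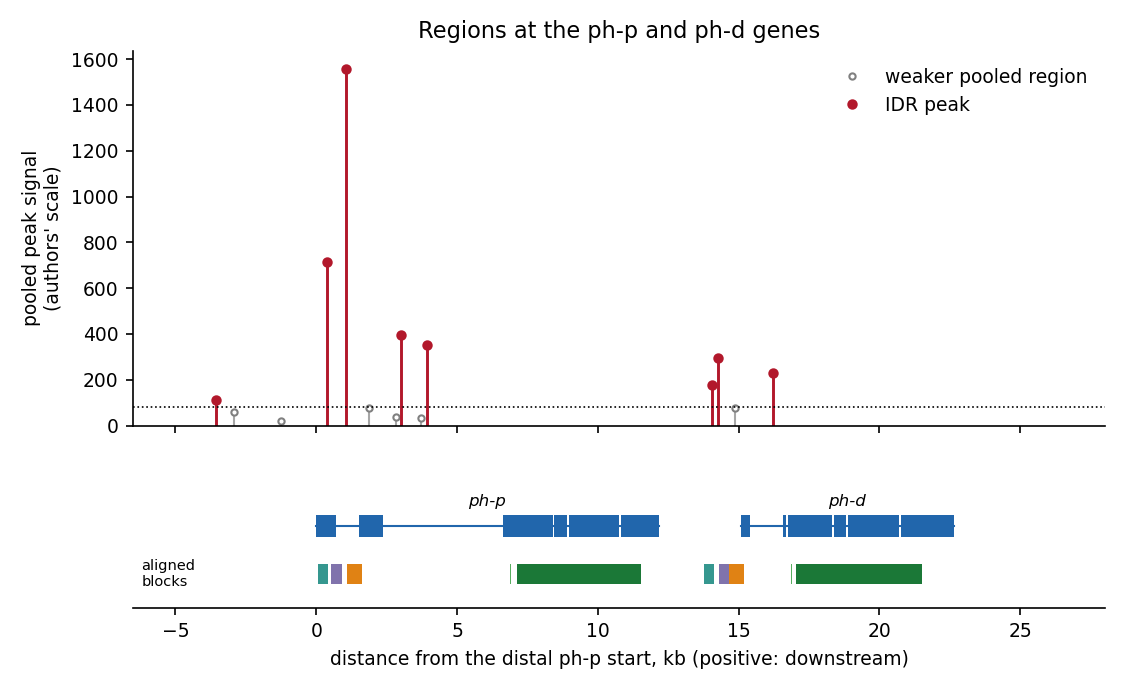
Regions at the ph genes by distance from the distal ph-p start (kb, x axis) and pooled peak signal on the authors' scale (y axis). Red stems are IDR peaks, grey circles weaker pooled regions, and the dotted line is the lowest IDR signal of 79.6. Gene models stand beneath, bars of 1 colour mark aligned blocks of the copies, and the highest stem, at 1559, is the ph-p intron peak.

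Pc encodes Polycomb, the chromodomain subunit of PRC1 that binds trimethylated lysine 27 of histone H3. The gene (FBgn0003042) lies on the minus strand of 3L from 21306138 to 21318020 and held 5 pooled regions in its window, 2 of them IDR peaks, neither inside the gene. The stronger IDR peak covered 3L from 21304371 to 21304773 and had signals of 340.0, 542 and 276 in replicates 1, 2 and 3. Its ranks were 69, 52 and 106, so it stood near the top of each list, and its pooled signal of 1159 was exceeded at 199 genes (1.43%).

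This peak lay past the 3′ end of Pc by 1570 bp and 13452 bp from the Pc TSS. It was in an intron of CG11309, 90 bp inside that gene's TSS. CG7632 starts close by at 21304697 in the opposite direction, so the region covers the starts of both of these neighbours. By the nearest-TSS rule the peak belongs to CG11309 and not to Pc. The annotated Pc gene contains a copy of the roo transposon from 21306203 to 21315303, which makes up 76.6% of the gene's length, so the distance from Pc depends on that insertion. Apart from a terminal exon of 61 bp, the nearest Pc exon lay beyond the insertion, 10738 bp from the summit. The other IDR peak, in the 3′ UTR of CG11309, was among the weakest of the list with a pooled signal of 82.4 and replicate signals of 20.5, 29.8 and 10.5. At the Pc promoter itself a region of pooled signal 20.5, well under the IDR peaks, lay 242 bp inside the TSS and was matched in 1 replicate.

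Psc and Su(z)2 are neighbouring genes on 2R that encode related proteins. Psc is a RING finger subunit of PRC1, and Su(z)2 is a close relative that can take its place in part. Psc (FBgn0005624, minus strand, 12965997 to 12980994) and Su(z)2 (FBgn0265623, plus strand, 12996501 to 13007911) are transcribed away from each other, with 15506 bp between them.

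Psc had 2 strong IDR peaks, one on each side of its start. The intron peak lay 5063 bp inside the gene from the nearest Psc TSS (2R, 12975406 to 12975767, pooled signal 762) and had signals of 183, 382 and 194 in replicates 1, 2 and 3. The upstream peak lay 4203 bp before the gene (2R, 12985019 to 12985397, pooled signal 668) and had 243, 253 and 179. The region of the upstream peak also covers the start of a noncoding RNA gene, lncRNA:CR44339, at 12985367 on the plus strand. Neither of the Psc peaks was reliably the stronger. The ratio of intron to upstream peak was 0.753, 1.51 and 1.09, a mean log2 ratio of 0.10 ± 0.50 (SD, n = 3), and its direction differed between replicates. At the Psc TSS itself only weaker regions were found, the strongest with a pooled signal of 60.6, which lay 161 bp upstream of a TSS and was matched in 2 replicates.

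Su(z)2 had a single IDR peak, 4848 bp upstream of its start and nearer to the TSS of CG33798 (2R, 12991433 to 12991872, pooled signal 135.7). Its signals were 61.3, 53.0 and 24.2 in replicates 1, 2 and 3. A second IDR peak of about the same height, with a pooled signal of 131.9 (2R, 12990786 to 12991225), lay 5495 bp from the Su(z)2 start and so just outside its window. That region had signals of 27.1 and 81.6 in replicates 1 and 2 and no match in replicate 3. The window of Su(z)2 also held 12 weaker pooled regions from 17.2 to 78.1. The 3 highest of these, at 78.1, 77.8 and 75.4, fell just short of the lowest IDR signal of 79.6, and the one of 77.8 lay 6 bp inside a Su(z)2 TSS.

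**Figure D2:**
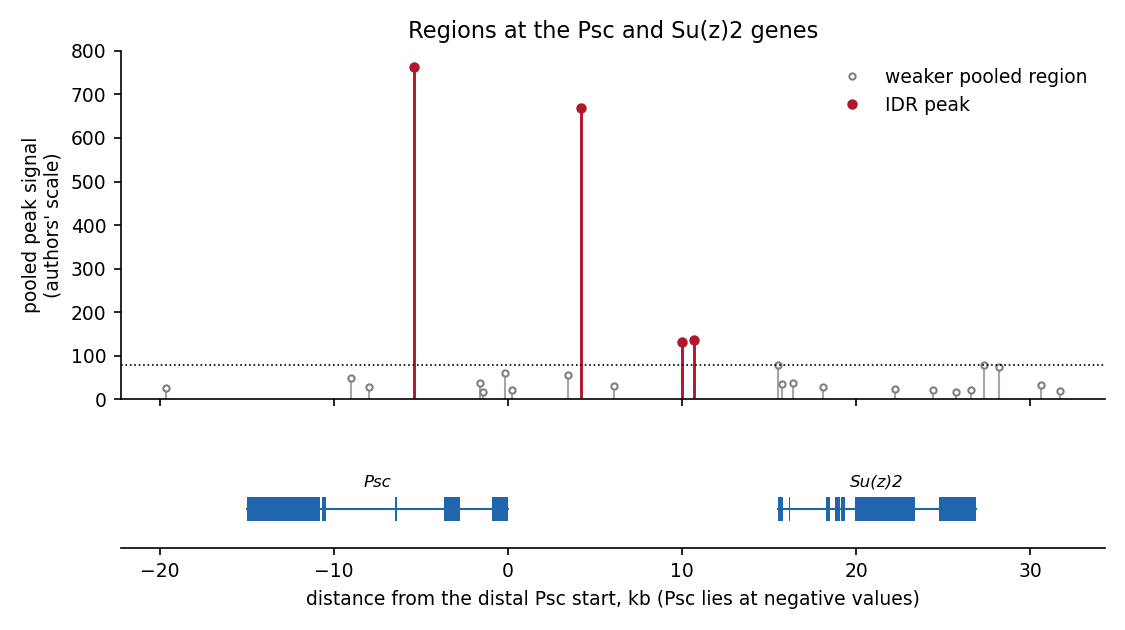
Regions at Psc and Su(z)2 and between them, by distance from the distal Psc start (kb, x axis) and pooled peak signal on the authors' scale (y axis). Red stems are IDR peaks and grey circles weaker pooled regions. The Psc peaks at 762 and 668 stand on both sides of the Psc start, and the weaker regions along Su(z)2 lie under the dotted line at 79.6.

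Sce encodes the RING protein of PRC1 that ubiquitinates histone H2A. The gene (FBgn0003330) covers 3R from 27680431 to 27682029 on the minus strand. Its window held 3 IDR peaks, all outside the gene, all weak and all nearest to the TSS of a neighbour. The strongest, 3530 bp upstream of Sce and 403 bp from the TSS of CG12880 (3R, 27685339 to 27685778, pooled signal 106.9), had signals of 25.7 and 51.4 in replicates 1 and 2 and no match in replicate 3. The others had pooled signals of 87.0, at 186 bp from the CG12880 TSS, and 85.3, at 49 bp from the TSS of Hsdl2. The region of the peak at 87.0 overlapped that of the strongest. The peak at 87.0 had signals of 18.3, 29.8 and 20.5, while the one at 85.3 had 27.1 and 23.1 in replicates 1 and 3 and no match in replicate 2. For Sce, 6187 genes (44.4% of all) had a stronger IDR peak. Only 7256 genes had any IDR peak in their windows, so Sce was low among those.

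Among the PRC2 genes, E(z) and Su(z)12 had an IDR peak at their own promoter and esc had none. E(z) encodes the histone methyltransferase of the complex and Su(z)12 a zinc finger subunit that the enzyme needs. The E(z) peak (FBgn0000629; 3L, 10637836 to 10638235) lay in the 5′ UTR, 69 bp inside the TSS, and had signals of 124, 128 and 116 in replicates 1, 2 and 3. It stood high in every replicate, at percentile 96.9 ± 1.05 (SD, n = 3), and its pooled signal was 367. Cnep1r2 starts close by at 10638146 in the opposite direction, so the region covers the starts of both genes. The Su(z)12 peak (FBgn0020887; 3L, 19923151 to 19923590) lay in the 5′ UTR, 91 bp inside the TSS, with signals of 40.4, 39.9 and 39.0 and a pooled signal of 118.6. Its percentile was 86.8, 78.7 and 87.3 in replicates 1, 2 and 3. Its pooled signal was below the IDR median of 145.0, and 5808 genes (41.6% of all) had a stronger IDR peak in their windows.

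esc encodes a WD40-repeat subunit of PRC2 and lies whole inside an intron of Pde1c, a phosphodiesterase gene (FBgn0000588; 2L, 11827204 to 11829405, minus strand). The strongest pooled region, and the only one, had a signal of 30.2 (rank 17917), well below the IDR range. It lay 4815 bp from the esc TSS, and its signal was 7.08 in replicate 1 and 9.88 in replicate 3, with no region of replicate 2 in the window. Replicate 3 held 2 more regions near esc, with signals of 15.95 and 11.3, matched in no other list.

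pho encodes the sequence-specific DNA-binding protein Pleiohomeotic and is the only one of the 10 genes on chromosome 4 (FBgn0002521; 1172469 to 1181628, minus strand). Neither the pooled list nor replicates 1 and 2 held a region in its window. Replicate 3 held 5, of which the strongest had a signal of 20.1 at percentile 72.9 of that list and lay 316 bp upstream of the pho TSS. The other 4 had signals from 7.04 to 8.34, close to the lowest signal of that list, 6.46. Replicate 3 had more regions on the whole of chromosome 4 than the others, with 216 against 170 in replicate 1 and 77 in replicate 2, and the part of this difference in the pho regions was not tested. The IDR list held 13 peaks on chromosome 4, and annotated transposons cover 48.8% of pho. These lists show regions that the authors' caller returned, so a gene without one is a gene where none was listed.

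**Figure D3:**
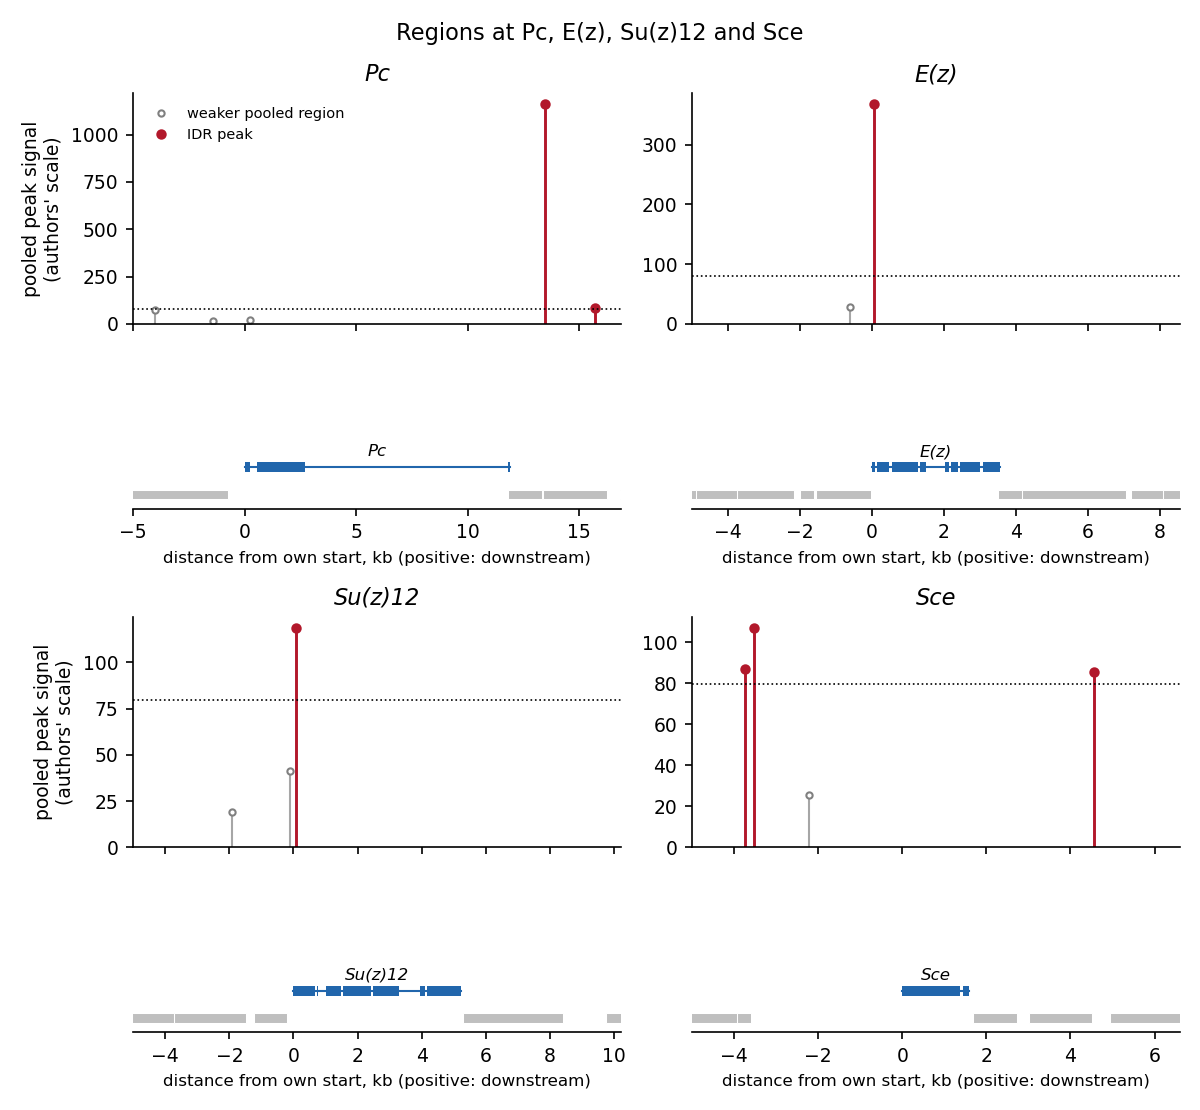
Regions at Pc, E(z), Su(z)12 and Sce, by distance from each gene's start in kb, downstream positive (x axis), and pooled peak signal on the authors' scale (y axis, scaled separately in each panel). Red stems are IDR peaks, grey circles weaker pooled regions, blue boxes exons of the gene and grey bars other genes, and the dotted line is at 79.6. The Pc peak at 1159 stands beyond the 3′ end, E(z) and Su(z)12 have theirs at the start, and those of Sce all lie outside the gene.

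The order of the genes by the mean percentile, over replicates, of the region strongest in the pooled list was ph-p, Pc, Psc, E(z), ph-d, Su(z)2, Su(z)12, Sce and esc. Percentiles were taken in each replicate's own list. The means were 99.7 ± 0.092 for Pc, 99.2 ± 0.341 for Psc, 94.4 ± 3.97 for ph-d, 85.1 ± 7.19 for Su(z)2 and 84.3 ± 4.83 for Su(z)12 (SD, n = 3). For Sce and esc only 2 replicates had a match, at 77.6 and 84.5 for Sce and at 8.46 and 40.5 for esc. The replicate ranges of ph-p, Pc, Psc and E(z) did not overlap between neighbours in this order. E(z) and ph-d overlapped, as did each further pair of neighbours down to Sce. With the strongest region of each replicate's own list instead, ph-d ran from 94.8 to 97.7 and Su(z)2 from 80.2 to 92.3, so these did not overlap, while E(z) and ph-d, Su(z)2 and Su(z)12, and Su(z)12 and Sce still did. The range of esc lay below that of Sce in both.

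**Figure D4:**
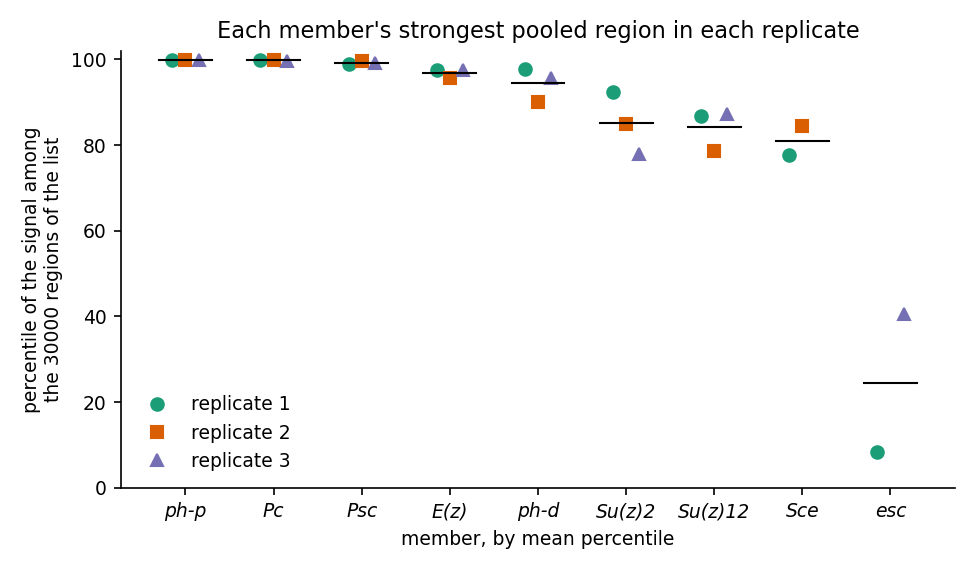
Percentile, in the replicates' own lists of 30000 regions (y axis), of each gene's region that was strongest in the pooled list, by gene in the order of the mean (x axis), with 1 point per replicate and a horizontal line at the mean. ph-p, Pc and Psc sit at 99.2 or above on average, Su(z)2, Su(z)12 and Sce spread from 77.6 to 92.3, and pho, with no pooled region, is not drawn.

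Fewer of the genes had a peak at their own start. An IDR peak within 500 bp of one of the gene's TSSs was found for 4 of the 10 genes (ph-p, ph-d, E(z) and Su(z)12), where 19.8% of all protein-coding genes had one. Over the 18 peaks, 5 lay within 500 bp of a TSS of a member, 6 summits were in introns, 6 between genes, 4 in 5′ UTRs and 2 in 3′ UTRs. The nearest protein-coding TSS was a member's for 11 of them. The other 7 were nearer to a neighbour, among them the strong Pc peak and all 3 at Sce. Shares of all IDR peaks in these places are not given here, so the counts describe the 18 peaks only.

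Most of the member peaks recurred in the replicates. A region with its summit within 100 bp was present in all 3 replicate lists for 16 of the 18 peaks (88.9%). The share was 87.5% for all IDR peaks. The 2 exceptions among the 18 were both at Sce. The Wilson 95% interval, 67.2 to 96.9, treats peaks as independent draws. These peaks were clustered at named genes, so it measures no spread between replicates or genes. Since the authors pooled these replicates to call the peaks, the share is no measure of their agreement. The pooled signals of the 18 ran from 82.4 to 1559 with a median of 262.5, against the median of 145.0 for all IDR peaks, and 11 of the 18 were at or above that median. Of the 18, 5 (27.8%) were above the 99th percentile of the pooled list, as were 4.23% of all IDR peaks. These 5 lay in the windows of ph-p, Pc and Psc, and the Pc one was nearest to the TSS of CG11309.

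**Figure D5:**
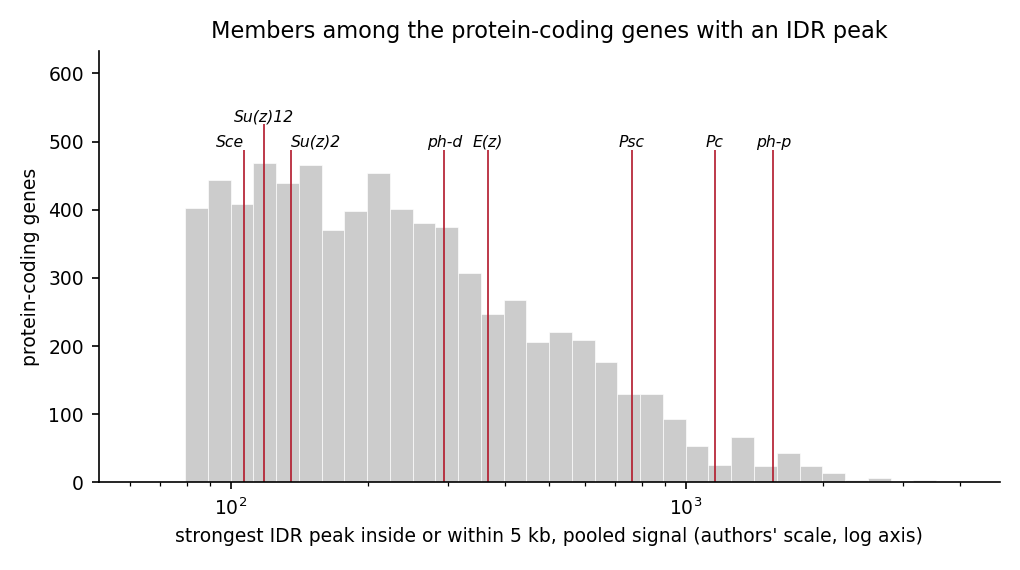
Number of protein-coding genes (y axis) by the pooled signal of their strongest IDR peak within 5 kb (x axis, authors' scale, log axis), with the 8 member genes that have one as red lines. By the peaks in their windows, ph-p, Pc and Psc stand in the upper tail, and Sce, Su(z)12 and Su(z)2 toward the lower end.

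Other genes of the Polycomb system gave like counts. Of 18 other Polycomb group genes, 15 (83.3%) had an IDR peak in their windows and 7 (38.9%) one within 500 bp of a TSS, with 1.08 IDR peaks per 10 kb. The strongest were at Caf1-55, the histone-binding subunit that PRC2 shares with other complexes (signal 1601), and phol, the paralog of pho (1320), followed by jing (636) and cg (602). Unlike pho, phol thus had a strong peak in its window, in an intron of the neighbouring CG3552. Its summit was 109 bp from the TSS of CG3552 and 1522 bp upstream of the nearest phol TSS. The Caf1-55 peak was also nearer to a neighbour, with its summit 117 bp from the TSS of Art3 and 3949 bp from that of Caf1-55. So was the cg peak, with its summit 286 bp from the TSS of Sdb and 11225 bp from that of cg. No IDR peak was assigned to Scm, sxc or E(Pc). Of 20 Trithorax group genes, whose products counteract Polycomb silencing, 17 (85.0%) had an IDR peak in their windows and 5 (25%) one within 500 bp of a TSS, with 1.13 per 10 kb. Over all protein-coding genes the window share was 52.0% and the TSS share 19.8%, with 0.652 IDR peaks per 10 kb. The windows of both lists were longer than the median of 12166 bp over all genes. Their medians were 15616 bp for the other Polycomb group genes and 18157 bp for the Trithorax group genes. The window share of the 10 genes, 80.0%, was close to that of both related lists, and no difference between the lists was tested.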

How the data were processed

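ChIP-seq region lists of 3 biological replicates of 1 group were used, on dm6. Per the file headers, the authors deposited narrowPeak lists of peaks and background as input for IDR, 1 per replicate and 1 for all replicates pooled, made with a control alignment, and the optimal IDR-thresholded peaks. The signal column holds the peak height from the authors' caller, in units of that list, and the deposited summit offset gives the position of the summit. Which aligner, caller and IDR threshold were used is not given in the sources used here, nor is depth. Lists on dm3 were not used.

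Summits were placed on Ensembl release 115 genes, and all 10 members had the same coordinates in the RefSeq annotation of Release 6. A region was assigned within 5 kb of a gene, and a replicate region matched within 100 bp of a summit. The percentile is the share of a list's regions with lower signal. Distances from the gene, the TSS and the summit, the signal threshold, the matching rule and the motif window were varied, and each replicate was left out. The ph copies were aligned with BLASTN (BLAST 2.17.0, E-value 1e-05). Scripts ran in Python 3.11.15 with pandas 2.3.3, and were tested on simulated data. No p-value was computed because there is 1 group. The text names all members, their IDR peaks up to 6 for each gene and, for the other Polycomb list, the 4 of highest signal and those without a peak. The weakest ph-p peak, the Psc and Su(z)2 intergenic peak outside both windows and the weaker regions named were added after their values were seen. The members, lists and motifs were chosen with earlier results of these data known, and 2 of the motifs were picked for their frequency at these peaks.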

Additional observations from a re-analysis of the deposited data

How the results depend on the processing

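No paired analysis was possible because only 1 group exists. The number of the 10 genes with an IDR peak, 8 within 5 kb, was 5 inside the gene only (14.2% of all genes), 5 within 1 kb (30.9%), 8 within 10 kb (67.5%), 5 for peaks of at least the median signal (35.8%) and 5 where the nearest protein-coding TSS was the gene's own (23.6%). The 18 peaks became 8, 9, 27, 11 and 11 in the same order. Leaving out 1 replicate, which keeps only peaks present in both others, gave 8 genes each time (49.5% to 50.3% of all genes) and 16 to 17 peaks. The share present in all 3 replicates was 88.9%, against 87.5% of all IDR peaks. It was 100% (18 of 18) with a 1 bp overlap, against 98.3%, and with summits within 250 bp, against 98%. Within 50 bp it was 77.8% against 57%, and with 50% reciprocal overlap 61.1% against 79.9%. Among each replicate's 7096 strongest regions it was 72.2% against 62.4%. For peaks of at least the median signal it was 100% (11 of 11) against 95.1%. Without 1 replicate it was 88.9% to 94.4%, against 90.9% to 91.5%. The 4 genes with a peak at a TSS were 2 within 250 bp (15.1% of all genes) and 4 within 1000 bp (23.6%). They were 3 for peaks of at least the median signal (11.6%), and 4 without any 1 replicate (18.2% to 18.6%). The strongest region of each replicate's own list, an alternative chosen after seeing the data, moved the mean percentile of ph-d from 94.4 to 96.01 and that of esc from 24.5 to 37.04. For Sce an overlap of 1 bp gave 78.5 in place of 81.0. All 9 mean percentiles moved by less than the SD over replicates under each of these alternatives. Of 20 motif counts within 25 or 100 bp, 12 moved, as window width sets them. With 3 replicates no sample was tested as an outlier, and the lists allow no statement on regions below 30000 per list.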
